A study of Homo sapiens with 15 samples.

Results

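The comparison concerns a difference of differences. It asks how far the RNA of an epithelial culture changes with added fibroblasts, and whether that change depends on the membrane below the cells. Genes were chosen by their measured level. Only those whose mean deposited value in fibroblast monocultures was not above the mean of the 6 epithelial monocultures were kept. This choice leaves out genes higher in fibroblasts grown alone, but not genes that fibroblasts may switch on in co-culture. The choice gave 8275 genes of 15790 in the table. Of these, 7652 had at least 10 normalized counts in at least 3 of the 12 epithelial libraries and were tested, and the other 623 were too low to test. At the edge of the choice, ELAPOR2 lay just inside, with a fibroblast minus monoculture difference of -0.000161 on the deposited log2 scale, and RNF181 lay just outside, with 6.67e-05.

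The cells were RPTEC/TERT1, a single immortalized line of human renal proximal tubular epithelium, and fHDF/TERT166, a single immortalized line of human dermal fibroblasts. The 5 groups of 3 libraries were RPTEC/TERT1 alone on LN/FN-silk (silk monocultures), RPTEC/TERT1 with fHDF/TERT166 on LN/FN-silk (silk co-cultures), RPTEC/TERT1 alone on LN/PC (LN/PC monocultures), RPTEC/TERT1 with fHDF/TERT166 on LN/PC (LN/PC co-cultures) and fHDF/TERT166 alone (fibroblasts). LN/FN-silk is a recombinant spider silk membrane, and the labels do not spell out LN/PC. No further agent separates the groups. All were harvested 14 days after seeding, the 4 epithelial groups in the same epithelial medium with 5 mM glucose and 140000 epithelial cells per cm2, to which co-cultures added 14000 fibroblasts per cm2, and each library pooled 3 to 8 membranes. Harvest differed with the membrane, since silk was scraped off, LN/PC was cut from its holder and the lone fibroblasts were scraped from the well bottom, and an effect of harvest cannot be told apart from one of the membrane. The labels do not say whether replicates were separate cultures, and p-values therefore measure the spread between these libraries only.

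Epithelial cells that lie next to stromal fibroblasts exchange soluble ligands, matrix and metabolites with them. In the kidney the proximal tubule relies on oxidative metabolism for transport, and it shifts toward glucose uptake and glycolysis when oxygen is short or the cells are stressed. Heat shock chaperones of the HSP70 family refold damaged proteins, laminins and integrins tie the epithelium to its basement membrane, and tight junction proteins seal neighbouring cells. The support on which tubular cells grow is known to affect their polarity, adhesion and differentiation.

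The interaction reported here is a log2 value: the change from monoculture to co-culture on silk minus that change on LN/PC, on the scale of log2(normalized count + 1), which understates changes of low genes. A positive value means that the gene stood higher after co-culture on silk than the LN/PC change alone would give. A gene was called where limma's Benjamini-Hochberg adjusted p over all 14433 genes tested was under 0.05. Normalized counts were computed from the deposited values under an assumed form of their transformation, and per library they summed to between 9080000 and 12700000. From the median of 112 fibroblast-restricted genes, the fibroblast share of RNA was 13.0% ± 2.80 (SD, n = 3) in the LN/PC co-cultures. In the silk co-cultures it was 0.0457% ± 0.0597 (SD, n = 3). The sum of these genes gave 0.118% ± 0.0567 (SD, n = 3) there. Estimates below 0 were set to 0. The 27 fibroblast markers chosen by name summed to 47809 to 54766 in the silk monocultures and 72266 to 78196 in the silk co-cultures. Their sum was 309620 to 476238 in the LN/PC co-cultures and 1416945 to 1585966 in the fibroblasts. Why the sum was higher in the silk co-cultures was not tested. In bulk RNA, fewer cells of a type and less RNA per cell cannot be told apart. Of 17 proximal tubule markers, 10 were in the table, and their summed normalized count ran from 11193 to 16755 in the 12 epithelial libraries and from 16063 to 18944 in the fibroblasts, so this sum does not separate the cell types, although 3 of the 10 were at 0 in every fibroblast library. Markers of the thick ascending limb and distal tubule, 4 of 9 in the table, summed to between 8421 and 14077 in the epithelial libraries and to at most 0.977 in the fibroblasts. Transcripts encoded by mitochondria made up 4.23 to 6.58% of the silk libraries and 1.50 to 3.80% of the LN/PC libraries.

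Of the 7652 tested members, 400 were called in the interaction, which is 5.23% against 7.73% of all genes tested. Most calls among members were in 1 direction. Of the tested members, 343 were called higher, 4.48% where the share of all genes was 3.15%. Another 57 were called lower, 0.745% where it was 4.59%. The rule for members left out genes higher in fibroblasts, and fibroblast RNA was present in the LN/PC co-cultures. The rule itself thus shapes this balance, from which nothing is read. The median interaction was 0.16 over the members and 0.03 over all genes tested. An unadjusted p under 0.05 was found for 1506 members, and 295 of the 400 calls were by at least 2-fold. The count of 400 was sensitive to single libraries. It was 196 without silk co-culture replicate 3, 221 without silk monoculture replicate 3, 225 without LN/PC co-culture replicate 1 and 230 without silk co-culture replicate 2. The highest count without 1 library was 563, without LN/PC monoculture replicate 2. In every one of the 12 fits that left out 1 library, 162 of the 400 genes were called.

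The called members differed in which membrane carried the change. The monoculture values in these single-membrane changes also helped to choose the members, so the counts below describe the members and nothing is read from the share that passed. On silk, 196 members were called higher in co-culture, which is 2.56% of the tested members where 2.91% of all genes tested were called, and 107 were called lower, 1.40% where the share of all genes was 0.866%. On LN/PC, 71 members were called higher, 0.928% where the share of all genes was 7.80%, and 615 were called lower, 8.04% where it was 4.72%. Of the 343 genes with a higher interaction, 148 were called lower on LN/PC and not called on silk, 104 were called higher on silk and not called on LN/PC, 22 were both, 6 were called higher on both membranes and 63 were called on neither. Of the 57 with a lower interaction, 24 were called lower on silk only, 15 higher on LN/PC only and 16 on neither. Over the 7652 tested members the changes on silk and on LN/PC had a Pearson r of 0.067 and a Spearman rho of 0.039, as a description across genes, which are not independent replicates.

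The separation of single libraries was counted as well. All 3 silk co-cultures lay above the other 9 epithelial libraries for 559 members, which is 7.31% of the tested members where 6.89% of all genes tested did so, and below them for 305, 3.99% where the share of all genes was 3.27%. All 3 LN/PC co-cultures lay above the other 9 for 73 members, 0.954% where the share of all genes was 7.67%, and below them for 601, 7.85% where it was 4.94%. The difference between membranes was wider in co-culture than in monoculture for 284 of the 343 genes called higher and for 41 of the 57 called lower. These genes were called from the same group means, and no share over all tested members stands beside these counts. Nothing is therefore read from them.

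**Figure D1:**
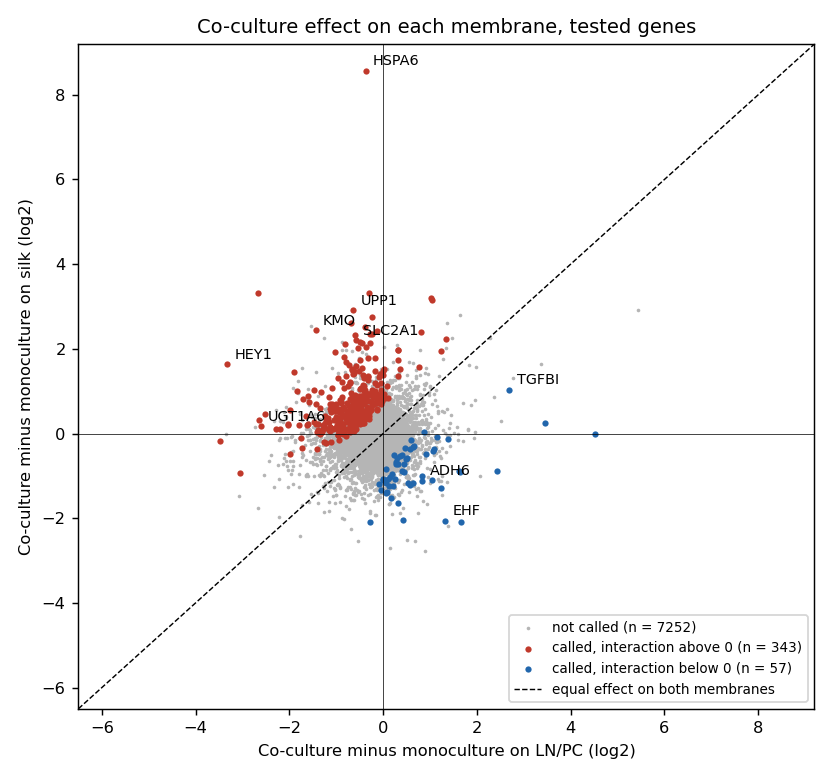
Change from monoculture to co-culture on LN/PC (x axis, log2) against the change on silk (y axis, log2) for the 7652 tested members. Genes on the dashed line changed equally on both membranes, and the 343 genes called higher in the interaction (red) lie above it, many of them at negative values on LN/PC, while the 57 called lower (blue) lie below it.

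RNA from fibroblasts in the LN/PC co-cultures moved with this result. A fibroblast share of 13.0% lowers a transcript that fibroblasts lack by 0.20 on the log2 scale, and the summed markers gave a larger share of 20.9% ± 5.81 (SD, n = 3). The 775 tested members with a fibroblast level of at most 1% of the monoculture level had a median change of -0.40 on LN/PC and a median interaction of 0.34. The 4392 members with a fibroblast level over 50% had a median change of -0.14 on LN/PC and a median interaction of 0.11. After each co-culture library was corrected for its share, the median interaction of the first set was 0.14 with the median share and 0.01 with the summed share. With those corrections 232 and 228 members were called, of which 79.3% and 70.2% were higher. With libraries scaled on 367 epithelium-restricted genes, the median interaction of all genes tested moved to -0.31, 320 members were called and 40.3% of them were higher, so the balance of directions among the calls depends on the scaling. Across the 21 settings that kept the membership rule, 106 of the 400 genes were called every time, 95 of them higher and 11 lower. The genes described first below belong to these 106.

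The strongest interaction among named members belonged to a heat shock gene that the monocultures hardly expressed. HSPA6, the strictly inducible member of the HSP70 chaperones, was at 0, 0 and 0 normalized counts in the silk monocultures and at 385, 929 and 151 in the silk co-cultures. It was at 2.99, 0 and 2.70 in the LN/PC monocultures, at 1.39, 0 and 1.84 in the LN/PC co-cultures and at 0, 0 and 0.938 in the fibroblasts. All 3 silk co-cultures stood far above every other library, and their mean was at least 174-fold higher than a floor of 3 reads per silk monoculture. The interaction was 8.94 (SE 0.99, limma adjusted p = 2.36e-05), a fitted value that rests on libraries at 0.

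HSPA1A and HSPA1B, the stress-inducible HSP70 genes of the class III region of the MHC, moved with it. HSPA1A was at 893, 1003 and 618 in the silk monocultures and at 2740, 2745 and 1789 in the silk co-cultures, against 1328, 1263 and 1021 in the LN/PC monocultures and 709, 756 and 809 in the LN/PC co-cultures. The silk co-cultures were the highest and did not overlap any other group, while the LN/PC co-cultures lay below the LN/PC monocultures. The interaction of HSPA1A was 2.19 (SE 0.28, limma adjusted p = 9.06e-05) and that of HSPA1B was 2.18 (SE 0.35, limma adjusted p = 0.00063). These genes are nearly identical in sequence, so how reads were split between them is uncertain. Of the 11 tested members of the cytosolic heat shock list, these 3 were called higher and none lower, 8 were positive and the median was 0.44. Over all tested members 4.48% were called higher and the median was 0.16. HSP90AA1, the inducible cytosolic HSP90, at -0.36, and HSP90AB1, its constitutive paralog, at 0.44, did not pass the test. Neither did FKBP4, a co-chaperone of HSP90, at 0.63, or HSPD1, the mitochondrial chaperonin, which the list also holds, at -0.47.

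The promoter windows of these 3 genes are shown because the genes moved together. The windows are from RefSeq on GRCh38.p14, from 250 bases before to 50 after the start, written along the gene, and the motif searched on both strands was GAANNTTC, a pair of the inverted units that make up a heat shock element. This motif and these genes were picked after the values had been seen. Capitals mark the matches. HSPA6 lies at chr1:161524290-161524589 on the plus strand, HSPA1A at chr6:31815293-31815592 on the plus strand and HSPA1B at chr6:31827488-31827787 on the plus strand.
HSPA6: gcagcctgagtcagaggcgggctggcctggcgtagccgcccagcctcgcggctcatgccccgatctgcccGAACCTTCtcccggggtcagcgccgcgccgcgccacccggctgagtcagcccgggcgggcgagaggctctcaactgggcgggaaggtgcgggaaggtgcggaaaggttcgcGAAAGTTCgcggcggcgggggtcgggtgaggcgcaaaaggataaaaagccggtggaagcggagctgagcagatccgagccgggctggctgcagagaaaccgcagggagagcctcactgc
HSPA1A: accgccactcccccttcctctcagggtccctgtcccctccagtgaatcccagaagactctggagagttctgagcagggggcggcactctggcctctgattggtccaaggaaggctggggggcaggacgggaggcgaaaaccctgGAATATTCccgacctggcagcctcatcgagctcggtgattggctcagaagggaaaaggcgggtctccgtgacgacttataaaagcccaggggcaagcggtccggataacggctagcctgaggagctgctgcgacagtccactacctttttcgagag
HSPA1B: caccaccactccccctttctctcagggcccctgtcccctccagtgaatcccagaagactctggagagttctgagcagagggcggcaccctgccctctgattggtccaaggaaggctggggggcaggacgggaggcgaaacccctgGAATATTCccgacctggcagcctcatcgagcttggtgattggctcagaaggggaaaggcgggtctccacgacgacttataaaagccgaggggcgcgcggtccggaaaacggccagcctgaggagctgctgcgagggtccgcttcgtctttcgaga
HSPA6 held 2 matches and HSPA1A and HSPA1B held 1 each. Of all 27305 genes with a window, 8.21% held a match, and of the 5671 tested members with a window, 6.75% did. A match is a description of the letters and not a measured site.

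A second group with higher interactions takes up and traps glucose. SLC2A1 encodes the glucose carrier GLUT1, and it was at 3705, 4062 and 3869 in the silk monocultures and at 20519, 15466 and 17845 in the silk co-cultures. On LN/PC it was at 4069, 4220 and 5579 in monoculture and at 2728, 4022 and 2616 in co-culture. The monocultures on both membranes were close in level, and co-culture set the silk libraries apart from all others. The interaction was 2.78 (SE 0.27, limma adjusted p = 7.5e-06).

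HK2 encodes hexokinase 2, which phosphorylates glucose in the first step of glycolysis. It was at 517, 963 and 817 in the silk monocultures and at 4439, 3475 and 4068 in the silk co-cultures, while on LN/PC it was at 532, 706 and 619 in monoculture and at 565, 580 and 543 in co-culture. The LN/PC groups overlapped, with a change of -0.13 (SE 0.19), and its interaction was 2.55 (SE 0.27, limma adjusted p = 1.87e-05). NDRG1, a hypoxia-responsive gene, was at 3520, 4385 and 3755 on silk alone, 21756, 19393 and 20352 on silk with fibroblasts, 2277, 4006 and 4214 on LN/PC alone and 5868, 8690 and 4112 on LN/PC with fibroblasts. NDRG1 thus changed in the same direction on both membranes, by 2.40 (SE 0.25) on silk and 0.82 (SE 0.25) on LN/PC, and its interaction was 1.59 (SE 0.36, limma adjusted p = 0.0108). The call for NDRG1 was lost after the correction with the summed share (limma adjusted p = 0.0627).

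Most other genes of oxygen sensing and glycolysis did not pass the test, which called 5.23% of all tested members. Of 17 tested members of the hypoxia list, 4 were called higher and none lower, with a median of 0.38, and the remaining called gene, PFKFB3, which makes the activator of phosphofructokinase, had 1.17 (limma adjusted p = 0.032) and is given to complete the count. VEGFA, the vascular growth factor, had 0.42 and CA9, a carbonic anhydrase under HIF control, had -1.72, and neither passed the test. CA9 was higher in co-culture on each membrane, by 1.65 on silk, not called, and 3.38 on LN/PC (limma adjusted p = 0.022). The hypoxia list had a median change of 0.98 on silk, with 5 called higher and 0 lower. On LN/PC its median change was 0.31, with 3 called higher and 0 lower. Of 18 tested members of the glycolysis list 2 were called, HK2 and ENO2, and the median was 0.08, below the 0.16 of all members. ENO2, the neuronal enolase, had 0.72 (limma adjusted p = 0.0429) and lost its call in 10 of the 12 fits without 1 library, the highest adjusted p being 0.113 without silk co-culture replicate 1. GAPDH at -0.14, ENO1 at -0.18 and PGK1 at -0.33 did not pass the test.

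A promoter window of HK2 is shown for this group, also picked after the values had been seen. The motif searched on both strands was ACGTG, the core of a hypoxia response element, which overlaps the E-box CACGTG. The window lies at chr2:74834920-74835219 on the plus strand of GRCh38.p14 in RefSeq, and capitals mark the matches.
HK2: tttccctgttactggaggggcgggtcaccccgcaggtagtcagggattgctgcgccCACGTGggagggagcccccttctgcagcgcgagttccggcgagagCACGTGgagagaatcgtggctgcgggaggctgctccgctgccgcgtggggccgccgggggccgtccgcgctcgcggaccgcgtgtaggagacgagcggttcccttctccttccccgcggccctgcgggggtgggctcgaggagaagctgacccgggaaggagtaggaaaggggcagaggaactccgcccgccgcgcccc
It held 4 matches over both strands, since each CACGTG reads the same on either strand, and the other HK2 window held 2. The SLC2A1 window held 0. Of all genes with a window 24.9% held ACGTG, and of tested members with a window 30.7% did.

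Several further members of large interaction were set apart by the silk co-cultures. UPP1, uridine phosphorylase 1 of pyrimidine salvage, was at 475, 447 and 433 in the silk monocultures and at 3887, 2897 and 3469 in the silk co-cultures, against 585, 647 and 1309 in the LN/PC monocultures and 468, 548 and 510 in the LN/PC co-cultures. Its interaction was 3.55 (SE 0.32, limma adjusted p = 4.17e-06). KMO, kynurenine 3-monooxygenase of tryptophan breakdown, was at 86.6, 167 and 141 on silk alone, 634, 626 and 839 on silk with fibroblasts, 254, 167 and 355 on LN/PC alone and 65.1, 68.4 and 166 on LN/PC with fibroblasts. KMO changed in opposite directions, by 2.44 (SE 0.35) on silk and by -1.44 (SE 0.35) on LN/PC, and its interaction was 3.87 (SE 0.49, limma adjusted p = 8.55e-05). The fibroblasts held at most 1.32 normalized counts of KMO.

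FZD10, a Frizzled receptor for Wnt ligands, was at 24.4, 21.2 and 19.4 on silk alone and at 157, 120 and 134 on silk with fibroblasts. On LN/PC it was at 7.06, 20.6 and 13.7 in monoculture and at 7.19, 6.45 and 8.98 in co-culture, and it was at 0 in all 3 fibroblast libraries. The silk co-cultures were again the only libraries above the rest, with an interaction of 3.30 (SE 0.54, limma adjusted p = 0.000861). FNIP2, a partner of folliculin in nutrient signalling, had an interaction of 2.94 (SE 0.31, limma adjusted p = 1.35e-05), with 822 to 977 normalized counts in the silk co-cultures and 92.4 to 257 on LN/PC. CPA4, a carboxypeptidase, and PAG1, an adaptor that holds Csk at the membrane, had 2.98 (SE 0.52, limma adjusted p = 0.00136) and 2.92 (SE 0.52, limma adjusted p = 0.0017). In both, the 3 silk co-cultures lay above the other 9 libraries. SIK1, a salt-inducible kinase, changed in the same direction on both membranes, by 3.19 (SE 0.31) on silk and 1.02 (SE 0.31) on LN/PC, with an interaction of 2.17 (SE 0.43, limma adjusted p = 0.00408). A second entry without a symbol, ENSG00000275993, had nearly the same values, with an interaction of 2.12, and whether their reads can be told apart was not tested.

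**Figure D2:**
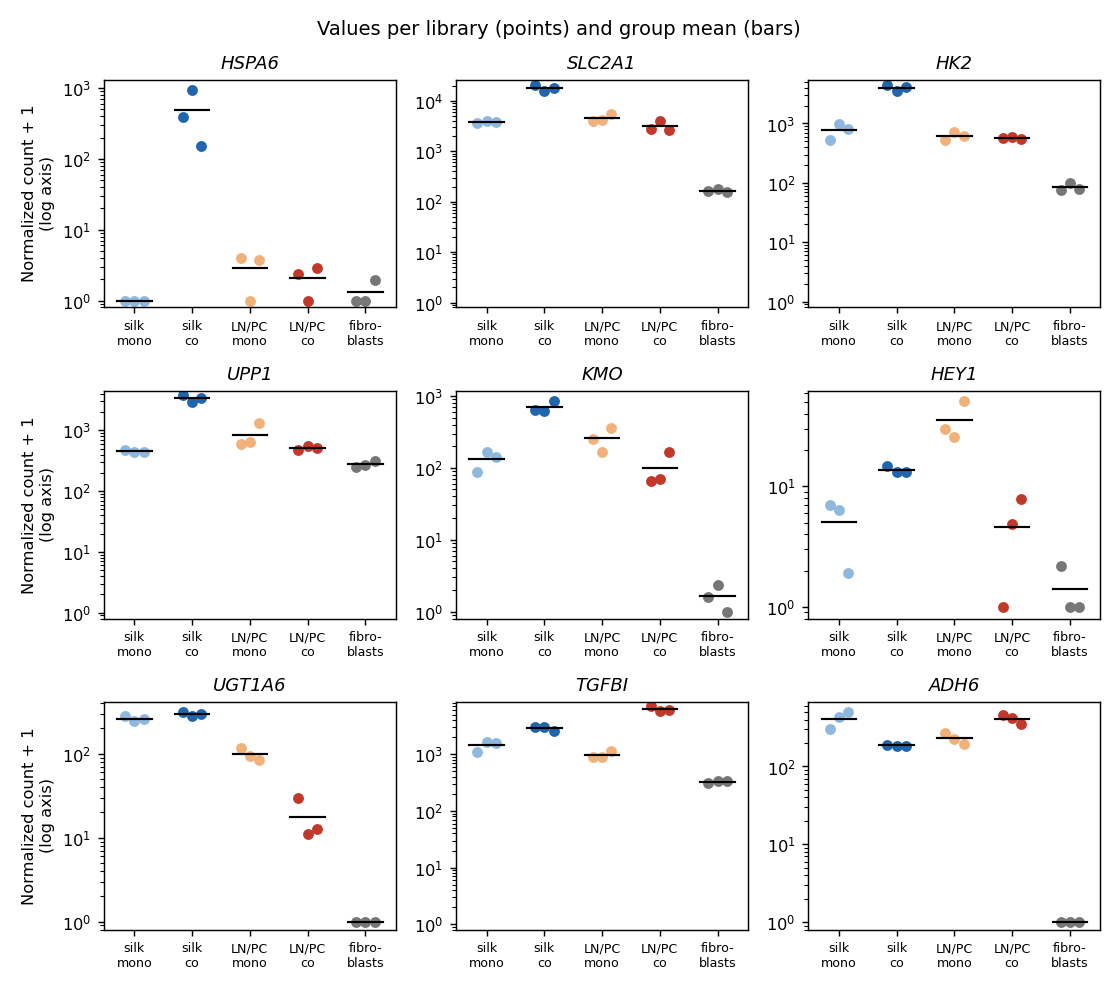
Normalized count + 1 on a log axis in each of the 15 libraries (points) with the group mean (bars) for 9 named genes, by group along the x axis. The silk co-cultures lie above all other libraries for HSPA6, SLC2A1, HK2, UPP1 and KMO, the LN/PC co-cultures lie lowest of the epithelial groups for UGT1A6, and for TGFBI the LN/PC co-cultures are highest.

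In other members the LN/PC libraries carried the change. UGT1A6 encodes a glucuronosyltransferase that conjugates phenolic drugs, and it was at 279, 248 and 258 on silk alone and at 310, 280 and 297 on silk with fibroblasts. On LN/PC it was at 115, 93.9 and 84.0 in monoculture and at 28.5, 10.0 and 11.6 in co-culture. The silk libraries all lay between 248 and 310 while the LN/PC co-cultures were the lowest of all epithelial libraries, and the interaction was 2.79 (SE 0.43, limma adjusted p = 0.000534). The change on LN/PC was -2.61 (SE 0.31). A 13.0% share of fibroblast RNA gives -0.20, and the summed shares give -0.23 to -0.43 by library. The 775 members with a fibroblast level of at most 1% had a median change of -0.40 on LN/PC. What caused the change of UGT1A6 was not tested. Genes of the UGT1A cluster share their last exons, so reads among them are uncertain, and UGT1A10 had an interaction of 2.97 (limma adjusted p = 0.0486). UGT1A6 was the called member of 16 tested in the drug metabolism list.

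HDAC9, a class IIa histone deacetylase, was at 373, 174 and 538 on LN/PC alone and at 117, 112 and 58.3 on LN/PC with fibroblasts, against 45.0, 41.9 and 42.3 on silk alone and 85.9, 84.1 and 92.1 on silk with fibroblasts. The membranes differed most in monoculture here and lay close together in co-culture, with an interaction of 2.83 (SE 0.49, limma adjusted p = 0.0014). PPARGC1A, the coactivator that drives mitochondrial biogenesis, was at 538, 361 and 391 on silk alone, 722, 662 and 697 on silk with fibroblasts, 407, 289 and 297 on LN/PC alone and 118, 140 and 195 on LN/PC with fibroblasts. Its interaction was 1.85 (SE 0.30, limma adjusted p = 0.000712), and co-cultures lay outside the range of all monocultures in opposite directions. By limma no mitochondrially encoded transcript was called among 13 tested (0 at an unadjusted p under 0.05), with a median of 0.15, and none of the 20 tested nuclear respiratory chain subunits (2 at an unadjusted p under 0.05), with a median of 0.05.

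The Wnt and Notch list held 15 tested members, of which 5 were called higher and none lower, with 13 positive and a median of 0.82. Of all tested members 4.48% were called higher and 0.745% lower, and their median was 0.16. The list was not compared with members of matched fibroblast level. HEY1, a transcriptional target of Notch, was at 29.0, 24.5 and 50.0 in the LN/PC monocultures and at 0, 3.89 and 6.94 in the LN/PC co-cultures. On silk it was at 5.98, 5.36 and 0.918 in monoculture and at 13.8, 12.2 and 12.1 in co-culture. The order of the culture types was reversed between the membranes at these low counts, and the interaction was 4.96 (SE 0.97, limma adjusted p = 0.00373). JAG2 had 1.38, WNT10A 1.31, JAG1 1.03 and WNT7B 0.91, where JAG1 and JAG2 are Notch ligands and WNT10A and WNT7B are Wnt ligands, and JAG1 and WNT7B are named to complete the count. JAG2 and WNT10A each lost their call in 7 of the 12 fits without 1 library, with the highest limma adjusted p at 0.0806 without silk monoculture replicate 3 and 0.0852 without silk co-culture replicate 3. After the correction for fibroblast share with the median of the markers, and after the epithelial scaling, 1 of these 5 genes was called. The receptor NOTCH1, at 0.17, and the target HES1, at 0.88, did not pass the test.

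Adhesion genes gave the next counts. Of 23 tested integrin, laminin and basement membrane genes, 5 were called higher and none lower, with a median of 0.58. Of 25 tested tight junction and polarity genes, 5 were called higher and none lower, with a median of 0.48. Among all tested members, 4.48% were called higher and 0.745% lower. Members with a fibroblast level up to 1%, 1 to 10%, 10 to 50% and over 50% had medians of 0.34, 0.47, 0.18 and 0.11. The lists were not compared with members of matched fibroblast level. LAMA3, a laminin chain of epithelial basement membranes, was at 686, 629 and 638 on silk alone and 1200, 1568 and 1719 on silk with fibroblasts, against 785, 222 and 999 on LN/PC alone and 320, 438 and 285 on LN/PC with fibroblasts. The groups on LN/PC overlapped and those on silk did not. The interaction of LAMA3 was 1.89 (SE 0.53, limma adjusted p = 0.0379), and after the correction with the summed share it was 1.79 and no longer called (limma adjusted p = 0.12). The laminin chain gene LAMB3 had 2.26, and the integrins ITGA3 and ITGB8, which the naming rule did not select, had 1.40 and 0.85. LAMA3 lost its call in 8 of the 12 fits without 1 library, with the highest limma adjusted p at 0.105 without LN/PC monoculture replicate 1. LAMB3 lost its call in 6, with the highest limma adjusted p at 0.0946 without silk monoculture replicate 3, and its LN/PC monocultures were widely spread at 814, 282 and 1658. The collagen IV genes COL4A1, at 0.82, and COL4A2, at 0.73, did not pass the test.

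Among junction genes CGNL1, the paralog of cingulin, was at 1010, 809 and 700 on silk alone, 1358, 1176 and 1345 on silk with fibroblasts, 484, 719 and 307 on LN/PC alone and 234, 206 and 250 on LN/PC with fibroblasts. Its co-cultures lay above all other libraries on silk and below all others on LN/PC, with an interaction of 1.68 (SE 0.33, limma adjusted p = 0.00373). CLDN1, a sealing claudin, had 1.68 (SE 0.39, limma adjusted p = 0.0124), with 1093, 464 and 1221 on LN/PC alone and 298, 266 and 388 on LN/PC with fibroblasts. CLDN1 was called without any 1 library, and its call was lost after the correction for fibroblast share (limma adjusted p = 0.0672) and after the epithelial scaling (limma adjusted p = 0.0541). CLDN14 had 1.53, and CLDN16, the paracellin of the thick ascending limb, and the junctional adhesion molecule F11R had 1.14 and 1.12. CLDN14 lost its call in 8 of the 12 fits without 1 library, up to a limma adjusted p of 0.109 without LN/PC co-culture replicate 1. Of the 25 tested junction genes, 1 was called higher and 1 lower after the correction with the median share, and the same counts held after the epithelial scaling. The occludin gene OCLN, at 0.31, did not pass the test.

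Cell surface growth signalling had 2 calls and the brush border 1, with medians of 0.76 and 0.19, where 5.23% of all tested members were called. MET, the receptor of hepatocyte growth factor, was at 2502, 2398 and 2615 on silk alone, 3829, 3797 and 5455 on silk with fibroblasts, 2991, 2174 and 3133 on LN/PC alone and 1781, 2020 and 1514 on LN/PC with fibroblasts. The co-cultures lay outside the range of all monocultures on both membranes, upward on silk and downward on LN/PC, and the interaction was 1.41 (SE 0.25, limma adjusted p = 0.00181). TGFA, a ligand of the EGF receptor, was the other called gene of 18 tested in the EGF and FGF list, at 1.07, and lost its call in 8 of the 12 fits without 1 library, up to a limma adjusted p of 0.0856 without LN/PC co-culture replicate 1. EZR encodes ezrin, which ties microvilli to the actin core, and it was at 6140, 6829 and 5863 on LN/PC alone and at 3242, 3983 and 3788 on LN/PC with fibroblasts. On silk it was at 5363, 5288 and 4092 alone and at 7201, 6424 and 6897 with fibroblasts. The LN/PC co-cultures lay below every other epithelial library, and the interaction of EZR was 1.26 (SE 0.22, limma adjusted p = 0.00153). EZR was the called gene of 8 tested in the brush border list.

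Stress genes outside the HSP70 family were also called. GCLC, the catalytic subunit of the first enzyme of glutathione synthesis, was at 315, 295 and 332 on silk alone and at 627, 585 and 571 on silk with fibroblasts, and between 281 and 385 in all 6 LN/PC libraries. Its interaction of 0.97 (SE 0.23, limma adjusted p = 0.0138) was lost after the epithelial scaling (limma adjusted p = 0.144). HYOU1, a chaperone of the endoplasmic reticulum, had 1.54 (SE 0.33, limma adjusted p = 0.00653) and was called under each of the 21 settings. HMOX1, heme oxygenase 1, had 1.88 and lost its call in 4 of the 12 fits without 1 library, up to a limma adjusted p of 0.0636 without silk monoculture replicate 3. In the silk monocultures HMOX1 was at 643, 206 and 250.

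Fewer members had a lower interaction, and of the 17 named among them 2 were called in each of the 12 fits without 1 library. TGFBI, a matrix protein induced by TGF-beta, was at 882, 897 and 1158 on LN/PC alone and at 7155, 5831 and 5946 on LN/PC with fibroblasts. On silk it was at 1082, 1649 and 1592 alone and at 3036, 3053 and 2623 with fibroblasts, and the fibroblasts held 310 to 336. Co-culture was higher than monoculture on both membranes without overlap, by 2.69 (SE 0.18) on LN/PC and 1.03 (SE 0.18) on silk. The interaction was -1.66 (SE 0.25, limma adjusted p = 0.000377). Which cells held the TGFBI transcript in co-culture was not tested. Of the 13 tested TGF-beta and BMP targets, 2 were called the other way, SMAD7 at 0.95 and PMEPA1 at 1.81. SMAD7 lost its call in 4 and PMEPA1 in 8 of the 12 fits without 1 library, with the highest limma adjusted p at 0.0589 without LN/PC co-culture replicate 1 and 0.0863 without silk co-culture replicate 3.

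ADH6, an alcohol dehydrogenase, was at 305, 437 and 493 on silk alone and at 190, 184 and 184 on silk with fibroblasts, while on LN/PC it was at 272, 227 and 192 alone and at 459, 420 and 355 with fibroblasts. It was at 0 in the fibroblasts. The culture types were in opposite order on the membranes without overlap, and the interaction was -1.95 (SE 0.28, limma adjusted p = 0.000283). Metallothioneins, which bind zinc and copper, had 2 of 5 tested members called lower and none higher, with all 5 negative and a median of -0.84. Over all tested members 0.745% were called lower. MT1X was at 134, 217 and 134 on LN/PC alone and at 271, 380 and 427 on LN/PC with fibroblasts, with 207 to 261 in the silk libraries. Its interaction was -1.25 (SE 0.31, limma adjusted p = 0.0203), and that of MT1E was -0.84 (limma adjusted p = 0.0399). MT1X lost its call in 5 and MT1E in 9 of the 12 fits without 1 library, with the highest limma adjusted p at 0.0643 without silk co-culture replicate 2 and 0.109 without silk monoculture replicate 2. The MT1 genes are near copies of each other, so their reads are uncertain.

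Genes of the cell cycle stood mostly below 0. Of 30 tested proliferation genes, 2 were called lower and none higher, where 0.745% of all tested members were called lower. In this list 2 were positive and the median was -0.76. The called genes were CDK1, the mitotic kinase, at -1.70 (SE 0.50, limma adjusted p = 0.0488) and AURKA, the spindle kinase Aurora A, at -1.33 (SE 0.37, limma adjusted p = 0.0357). CDK1 was at 154, 249 and 486 on silk alone, 102, 83.5 and 90.3 on silk with fibroblasts, 165, 92.1 and 236 on LN/PC alone and 187, 161 and 172 on LN/PC with fibroblasts. The silk monocultures were spread widely, and the LN/PC groups overlapped. CDK1 lost its call in 10 and AURKA in 8 of the 12 fits without 1 library, both with their highest limma adjusted p without silk monoculture replicate 3, at 0.134 and 0.104. By limma no proliferation gene was called after the correction with the median share, where 10 had an unadjusted p under 0.05, and 3 were called lower after the epithelial scaling. The proliferation marker MKI67, at -0.88, and RRM2, a subunit of ribonucleotide reductase, at -1.54, did not pass the test. In the change on silk MKI67 and RRM2 were called lower, at -1.45 and -1.82. On LN/PC they were at -0.57 and -0.28 and not called. Of the 30 genes, 10 were called lower on silk, with a median change of -0.90, and 0 higher. On LN/PC 1 was called lower and 0 higher, with a median change of -0.23.

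Other members with a lower interaction were low or spread. CFB, complement factor B, was at 203, 168 and 120 in the LN/PC co-cultures and at 29.8, 15.9 and 25.9 in the silk co-cultures, with an interaction of -2.14 (SE 0.53, limma adjusted p = 0.0196). EHF, an epithelial ETS factor, had -3.38 (SE 0.92, limma adjusted p = 0.0334) from levels of at most 91.8. CFB lost its call in 4 and EHF in 8 of the 12 fits without 1 library, with the highest limma adjusted p at 0.0663 without LN/PC co-culture replicate 1 and 0.0989 without silk co-culture replicate 2. CDKN1C, the cell cycle inhibitor p57, was at 310, 322 and 241 on silk alone and 147, 156 and 112 on silk with fibroblasts, with 199 to 334 in all LN/PC libraries. Its interaction was -1.18 (SE 0.31, limma adjusted p = 0.0252), and it lost its call in 3 of the 12 fits, up to a limma adjusted p of 0.0841 without silk co-culture replicate 3.

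**Figure D3:**
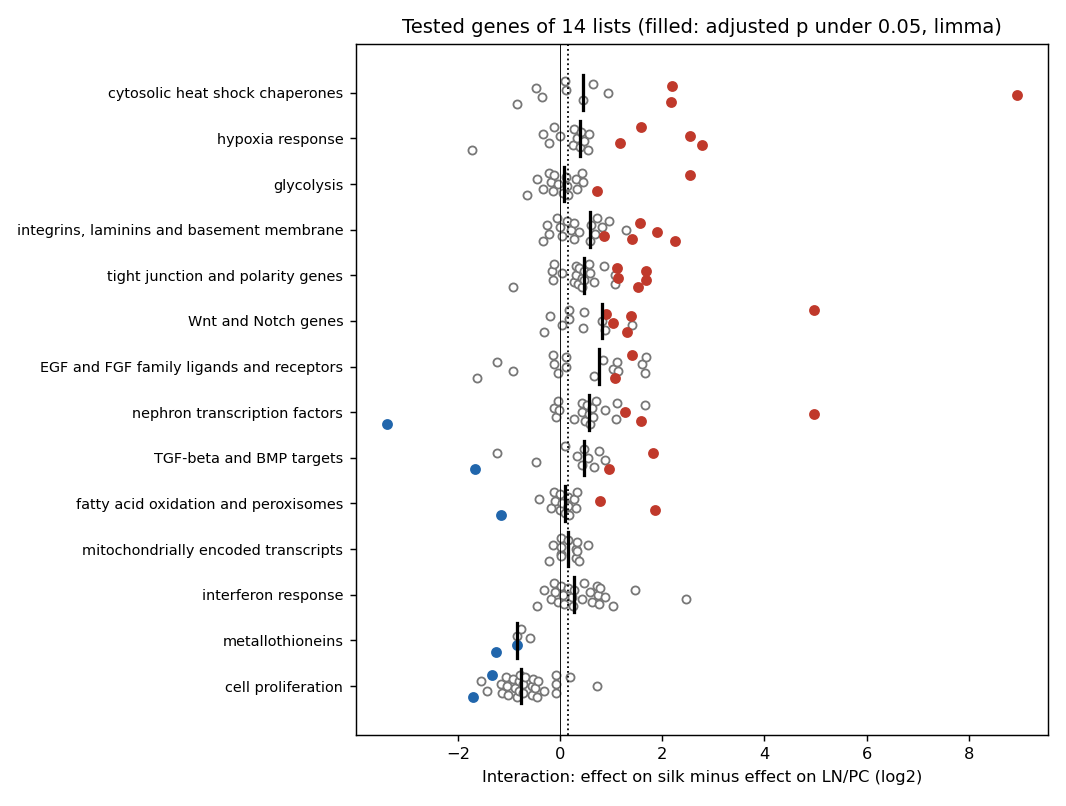
Interaction (x axis, log2) of each tested member of 14 gene lists (rows), with filled points for genes called by limma, a bar at each list's median and a dotted line at the median of all tested members, 0.16. The called chaperone, hypoxia, adhesion and Wnt and Notch genes lie to the right, and the metallothionein and proliferation medians lie at -0.84 and -0.76.

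Regulators of nephron identity and markers of tubular injury came next, where 5.23% of all tested members were called. Of 22 tested nephron transcription factors, 12 had an unadjusted p under 0.05 and 4 were called by limma, with a median of 0.58. Besides HEY1 and EHF these were KLF5, a Krüppel-like factor of epithelia, at 1.26 and named to complete the count, and BHLHE41, a repressor of the circadian clock, at 1.58. PAX8 at 0.58 and LHX1 at 1.65, which specify the tubule, did not pass the test. After the correction with the median share, 5 of the 22 factors had an unadjusted p under 0.05 and 2 were called higher. EHF and BHLHE41 then lost their calls, at a limma adjusted p of 0.0579 and 0.0873. Of 22 tested injury and progenitor markers 4 were called higher, with a median of 0.33: ICAM1, an adhesion receptor for leukocytes, at 2.54, SOX4 at 1.42, KRT19, a simple epithelial keratin, at 0.91, and ITGB8. ICAM1 was at 451, 118 and 603 on LN/PC alone and at 88.9, 85.6 and 67.1 on LN/PC with fibroblasts. ICAM1 and SOX4 each lost their call in 1 of the 12 fits without 1 library, at a limma adjusted p of 0.0518 without silk monoculture replicate 3 and 0.0511 without LN/PC co-culture replicate 1. Both calls were also lost after the corrections for fibroblast share, at a limma adjusted p of 0.059 and 0.0862 for ICAM1 and 0.0564 and 0.0829 for SOX4 with the median and the summed share. After either correction limma called none of the 22 injury markers, where 6 had an unadjusted p under 0.05 with the median share. BHLHE41 lost its call in 6 and KRT19 in 9, with the highest limma adjusted p at 0.0755 and 0.143, both without LN/PC co-culture replicate 1.

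The inflammatory, fatty acid and ciliary lists followed, where 5.23% of all tested members were called. LIF, a cytokine of the interleukin 6 family, had 1.15 and was the other called gene beside ICAM1 of 18 tested in the NF-kB and cytokine list, whose median was 0.88. Of 17 tested genes of fatty acid oxidation, 2 were called higher, PPARGC1A among them, and ACSM3, a medium-chain acyl-CoA synthetase, at -1.16, was called lower. IFT74, a subunit of intraflagellar transport, was called lower at -0.95 among 17 tested primary cilium genes, whose median was -0.26. LIF, ACSM3 and IFT74 each lost their call in 7 or 9 of the 12 fits without 1 library, with the highest limma adjusted p from 0.0956 for IFT74, without LN/PC co-culture replicate 1, to 0.121 for LIF, without the same library.

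Some lists had tested members and no call by limma. The interferon response had 25 tested members with a median of 0.28, and 4 of them had an unadjusted p under 0.05. The MHC class I list had 9 with a median of 0.59 and 3 such p-values, and the ABC transporters had 11 with a median of 0.45 and 3 such p-values. Among immediate early genes 10 were tested with a median of 0.21 and 2 such p-values, and the sodium pump and aquaporin list had 6 with a median of 0.25 and 1 such p-value. Of 7 tested proximal tubule markers none was called by limma and 2 had an unadjusted p under 0.05, with a median of 0.24. The epithelial scaling lowered all list medians by about the same amount as that of all genes, so which of them stay above 0 follows from their size before it. Heat shock went from 0.44 to 0.10 and hypoxia from 0.38 to 0.04, and glycolysis went from 0.08 to -0.25, the interferon response from 0.28 to -0.06 and the proximal tubule markers from 0.24 to -0.09. Of 15 tested proximal tubule solute carriers, SLC12A7, a potassium chloride cotransporter, was called, at 1.24. SLC12A7 lost its call without 2 of the 12 libraries, up to a limma adjusted p of 0.0634 without silk co-culture replicate 3. The cytosolic ribosomal proteins had no member, since all 33 were higher in fibroblasts than in the epithelial monocultures.

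Of the 61 genes named, 26 were called in each of the 12 fits without 1 library and 23 in all 21 settings. None changed sign under any setting, but all 61 were called in the fit reported, so nothing is read from the kept signs. The 23 comprised 21 higher and 2 lower. For HSPA6 the interaction ran from 8.29 to 9.60 over the fits without 1 library, and for SLC2A1 from 2.64 to 2.98. For UGT1A6 it ran from 2.52 to 3.23, and for TGFBI from -1.85 to -1.55.

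**Figure D4:**
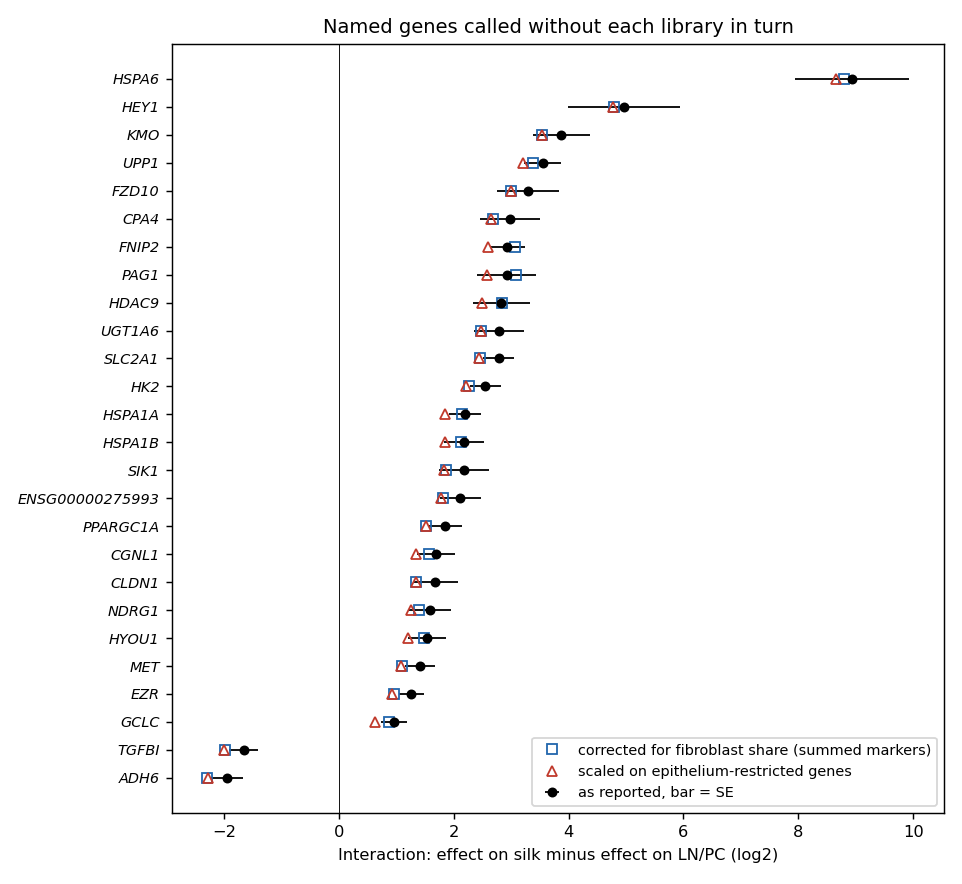
Interaction (x axis, log2) of the 26 named genes called without each library in turn (rows), as reported with its SE (black), after correction for the fibroblast share from summed markers (blue squares) and with libraries scaled on epithelium-restricted genes (red triangles). All 26 genes keep their side of 0, with the scaled values to the left of the reported ones. They were chosen for being called in these data, so nothing is read from the kept sides.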

How the data were processed

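Total RNA of 15 cultures was sequenced after oligo-dT selection with a directional kit, per the labels' protocols. The submitters used Salmon 1.10.3 for quantification and DESeq2, per the submitters' processing notes. Genome build, annotation and the strand setting of counting were not given in the sources used here. All deposited values are log2-like with 1 common floor of 5.54. They were taken to be a variance-stabilizing transformation, an assumption, since the authors' transformation is not given in the sources used here, and all normalized counts come from inverting that form. Whole reads were not recovered, so no count model was used. The peak of low values puts 1 read at 0.756 to 1.23 normalized counts and depth at about 8810000 to 14700000 reads per library.

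Log2(normalized count + 1) of the 12 epithelial libraries was fitted with limma 3.58.1 (R 4.3.3, trend). Genes at 10 or more in at least 3 libraries were kept, with adjustment over all of them by Benjamini-Hochberg at 0.05. The test was checked on simulated data with independent noise. That simulation held no fibroblast RNA and no deviation shared between libraries, so it does not cover their effect on the calls. Fibroblast shares used 112 genes at 1000 or more in fibroblasts and at least 100 times the monoculture level. Named genes are the 10 highest and 10 lowest called members with a group mean of at least 100, up to 3 called members in each of 38 gene lists, and up to 4 called members with the largest change on silk; a few genes are not reported here. Alternatives covered the scale, pseudocount, low-value filter, scaling, fibroblast share, membership, a replicate block and each library left out. The members and lists were chosen with earlier results of these data known.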

Additional observations from a re-analysis of the deposited data

Results flagged for a closer look

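For 400 members the change from monoculture to co-culture differed between silk and LN/PC by a test of the difference itself, limma's interaction term, and the 61 genes named are among them. The values are the interaction on the log2 scale. The highest were HSPA6 8.94, HEY1 4.96, KMO 3.87, UPP1 3.55, FZD10 3.30, CPA4 2.98, FNIP2 2.94, PAG1 2.92, HDAC9 2.83, UGT1A6 2.79, SLC2A1 2.78, HK2 2.55, ICAM1 2.54, LAMB3 2.26, HSPA1A 2.19 and HSPA1B 2.18. The next were SIK1 2.17, ENSG00000275993 2.12, GDF15 2.05, LAMA3 1.89, HMOX1 1.88, PPARGC1A 1.85, PMEPA1 1.81, CGNL1 1.68, CLDN1 1.68, NDRG1 1.59, BHLHE41 1.58, HYOU1 1.54, CLDN14 1.53, SOX4 1.42 and MET 1.41. The smallest positive values were JAG2 1.38, WNT10A 1.31, EZR 1.26, SLC12A7 1.24, LIF 1.15, TGFA 1.07, SLC38A1 1.06, GCLC 0.97, SMAD7 0.95, CRIM1 0.91, KRT19 0.91, ENO2 0.72 and AFDN 0.69. The values below 0 were EHF -3.38, CFB -2.14, ADH6 -1.95, CENPK -1.83, LINC03104 -1.79, CAPN3 -1.79, CDK1 -1.70, PCLAF -1.70, TGFBI -1.66, ADAM28 -1.50, TALAM1 -1.47, AURKA -1.33, MT1X -1.25, CDKN1C -1.18, ACSM3 -1.16 and IFT74 -0.95. The remaining value below 0 was MT1E -0.84. Some genes listed here and not described above lost their call in several of the 12 fits without 1 library. CRIM1 and ADAM28 lost it in 10, and GDF15, AFDN, CENPK and CAPN3 in 9. SLC38A1 and LINC03104 lost it in 6, PCLAF in 5 and TALAM1 in 3. TALAM1 lies antisense to MALAT1, and without a stated strand setting their reads cannot be told apart. No explanation was weighed for these values.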

How the results depend on the processing

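The count of members called in the interaction, 400, kept to within 1.5 times under another scale, pseudocount, filter, upper quartile scaling, epithelial scaling and membership on normalized counts. It was 232 and 228 after correction for the fibroblast share from the median and from the summed markers, 133 with membership limited to a fibroblast level of at most 10% of the monoculture level (fewer genes), and 196 to 563 without 1 library each. Epithelial scaling kept 186 of the 400 genes and turned the split to 129 higher and 191 lower; upper quartile scaling gave 79.0% higher. The count on silk, 303, was 176 after the summed correction, 101 with the stricter membership and 108 to 460 without 1 library; 64.7% of these calls were higher, against 50.6% under upper quartile and 82.3% under epithelial scaling. The count on LN/PC, 686, was 1191 under epithelial scaling (89.3% higher against 10.3%), 422 and 447 after the corrections, 226 with the stricter membership and 304 to 840 without 1 library. The causes were not tested beyond the smaller gene number noted. No named gene changed sign, from which nothing is read, since all were called in the fit reported.

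Replicate numbers were shared between groups, but same-numbered libraries did not deviate together. Their 18 correlations ran from -0.25 to 0.19, 2 were over 0.1, and 2 of 12 libraries were closest to their own number. Some libraries of different number had larger correlations. LN/PC monoculture replicate 2 had 0.33 with silk monoculture replicate 1 and 0.32 with LN/PC co-culture replicate 3. The cause was not tested, and a block on replicate number does not cover such shared deviation. With the replicate block, 305 members were called in the interaction, 237 on silk and 530 on LN/PC, and 50 of the 61 named genes kept their call. Depth limits low genes such as HEY1 and EHF, and counting error within a library is not separated from the spread between libraries.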
